A study of Mus musculus with 12 samples.

Results

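SAGA and ATAC are the protein complexes in which the histone acetyltransferase Gcn5 works, and the transcript levels of their other subunits were examined here in embryoid bodies with and without Gcn5. The members were chosen by name, as known subunits of the 2 complexes other than Gcn5 and its relative PCAF. Atxn7l3b, a cytoplasmic paralog of the subunit Atxn7l3, was listed with them and is counted among the subunits below. Of 32 named members, 31 were found among the 18269 genes of the deposited table, and Taf9 was not analysed here. All 31 had a mean of at least 10 normalised reads in at least 1 group and were tested. Embryoid bodies are aggregates of differentiating embryonic stem cells, here of strain C57BL/6. The 4 groups were Gcn5-/- (line 4C2, called null below) at day 5, Gcn5fx/fx (line 4_1, called floxed below, with Gcn5 flanked by recombination sites) at day 5, null at day 3 and floxed at day 3, each with 3 samples. With 1 cell line for each genotype, effects of line and of genotype cannot be told apart. The design text speaks of duplicates while 3 samples are listed in each group, and no label says whether they were separate cultures. The p-values then measure only the spread between those samples, which may be technical.

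Gcn5, encoded by Kat2a, and PCAF, encoded by Kat2b, acetylate histone H3 and take their place in either complex through a small ADA module. SAGA adds a structural core that shares several TAF proteins with the basal transcription factor TFIID, a deubiquitinase module that removes ubiquitin from histone H2B, the large scaffold Trrap and a pair of splicing-factor proteins. ATAC uses an ADA module of its own composition and adds histone-fold proteins, reader proteins and an acetyltransferase of its own, Kat14. Both complexes act as coactivators at promoters and enhancers and are required in early mouse development.

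Values are reads per gene divided by a size factor for each library, called normalised reads below. Recovered reads numbered 18022071 to 26803369 per null library and 23090915 to 29446068 per floxed library. Within groups, log2 values correlated across genes at r = 0.982 to 0.990, and no library was a near copy of another. Along the third principal component (5.89% of variance) the replicate 3 libraries of null day 5, floxed day 5 and null day 3 lay apart from the other 9, so counts are also given without the replicates numbered 3. Epiblast markers were present in every group, with a summed level of 11673 to 14976 in null and 16138 to 22377 in floxed samples at day 5, against 32733 to 43145 in null and 36931 to 50083 in floxed samples at day 3. Of 12 fibroblast markers, which feeder cells would carry, 11 were listed and none had 0 reads in a group. Their summed level was 1392 to 3295 in null and 1349 to 3303 in floxed samples at day 5, and 459.6 to 495 in null and 401 to 496 in floxed samples at day 3. Neural ectoderm markers summed to 5605 to 7568 in null and 8891 to 16036 in floxed samples at day 5, and to 3731 to 4912 in null and 4232 to 5307 in floxed samples at day 3. Primitive streak and mesoderm markers (6 of 7 listed) summed to 281 to 414 in null and 379.5 to 676 in floxed samples at day 5, against 224 to 252 in null and 192 to 239 in floxed samples at day 3. Extraembryonic endoderm markers summed to 1718 to 2569 in null and 1439 to 4482 in floxed samples at day 5, against 463 to 518 in null and 335 to 764 in floxed samples at day 3. At day 5 the epiblast and neural sums of all null samples lay below those of all floxed samples, and the other 3 sums overlapped. The part of these cell types in the comparisons between genotypes and between days was not tested. In such mixed samples, fewer cells of a type and less RNA per cell cannot be told apart.

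Kat2a, the gene removed in the null line, had 739, 852 and 860.2 normalised reads in null and 2161, 2391 and 2071 in floxed samples at day 5, and 649, 614 and 840.5 in null and 2077, 2226 and 2379.8 in floxed samples at day 3. Every null sample lay below every floxed one on both days, with log2 changes of -1.43 ± 0.11 and -1.68 ± 0.11 (limma SE, adjusted p = 1.60e-05 and 1.01e-05). The labels do not say which exons were removed. Kat2b averaged 1.54 ± 0.102 times the level of Kat2a per kilobase in null and 0.279 ± 0.0678 times in floxed samples at day 5 (SD, n = 3 each). The order of the 2 acetyltransferase genes thus differed between the lines, in a ratio whose lower term is the removed gene. Kat2b itself was higher in null samples at day 5 (log2 change 1.06, limma adjusted p under 0.05). Its day 3 change of 0.16 did not pass.

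Most subunit transcripts of both complexes, like most genes tested, were not called between null and floxed embryoid bodies. Those called changed by less than 2-fold. Below, a change was called at a limma adjusted p (Benjamini-Hochberg over all genes tested) under 0.05, and log2 changes stand ± their SE. At day 5, 1 of 31 members rose (3.23%) and 8 fell (25.8%) in null against floxed samples, where 13.0% of all 17000 genes tested rose and 13.5% fell. The median log2 change was -0.12 over the members and -0.020 over all genes. At day 3, 3 rose (9.68%) and 1 fell (3.23%), against 4.09% and 2.03% of all genes, with a median of -0.051 over the members. All 3 null samples lay below all 3 floxed samples for 14 members at day 5 and above them for 4 (22.2% and 19.8% of all genes). At day 3 the same held for 8 members below and 5 above (13.1% and 14.8% of all genes). In all, 11 of 31 members were called on at least 1 day (28.3% of all genes were), and 2 on both, Atxn7l3b and Usp22 (4.35% of all genes). The other 20 were called on neither day (71.7% of all genes). The 95% intervals of the members not called on a day reached at most 0.817 in log2 size at day 5 and 0.821 at day 3. Without the replicates numbered 3, the day 5 counts were 1 higher (Usp22) and 3 lower (Atxn7l3b, Taf5l and Tada1), and the day 3 counts 1 higher (Usp22) and 0 lower. The shares of all genes were then 7.66% and 7.59% at day 5 and 1.46% and 0.782% at day 3. A same-numbered pairing of null and floxed samples as a block gave 10 fallers at day 5 and 3 at day 3, where 17.3% and 4.53% of all genes fell.

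**Figure D1:**
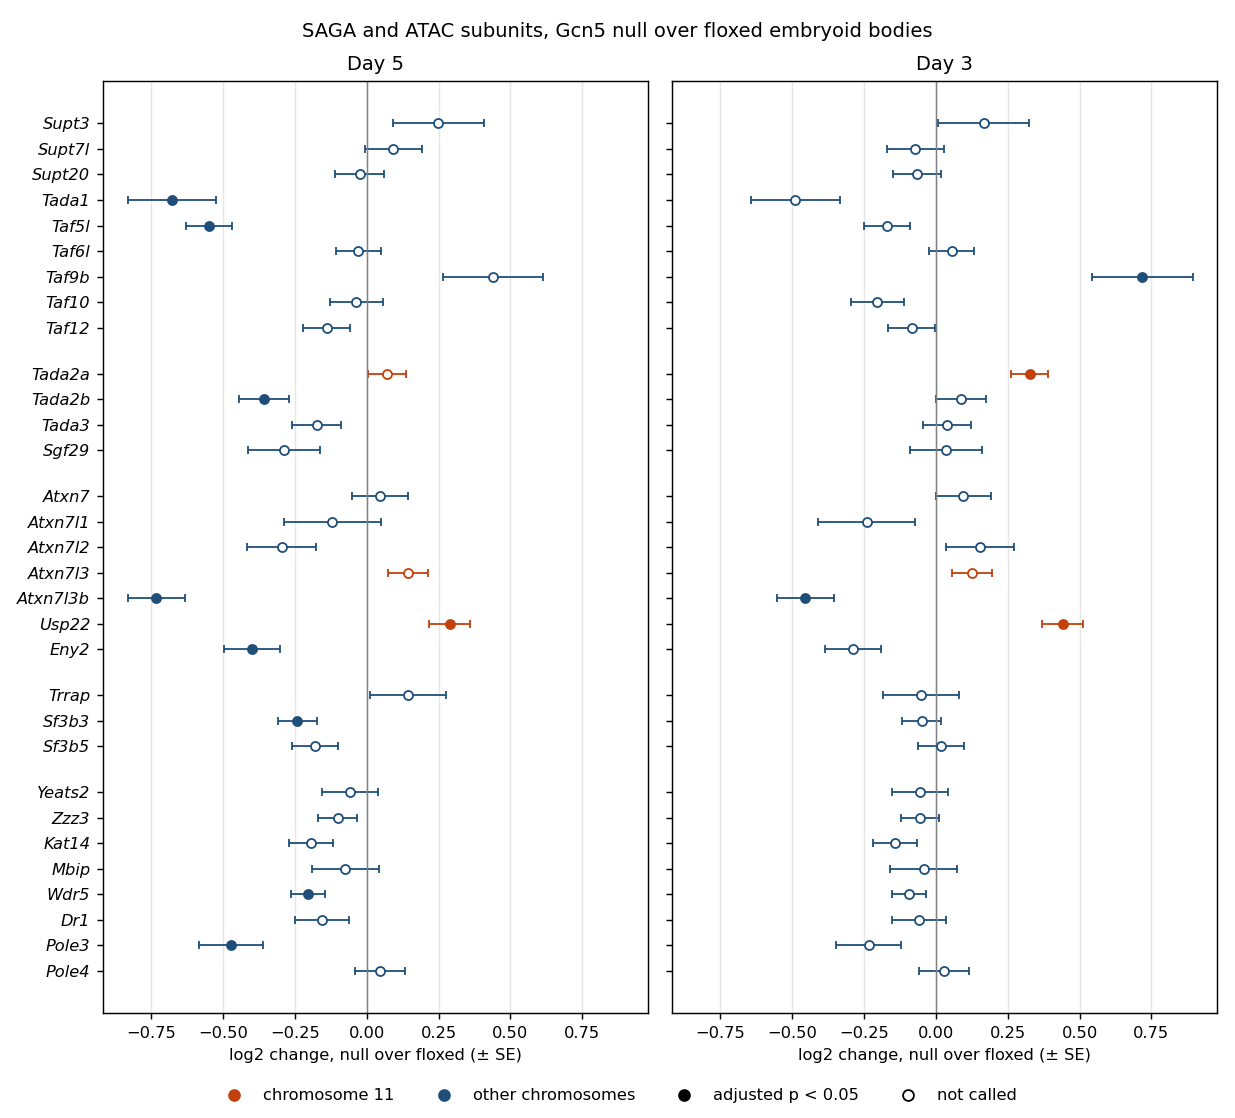
Log2 change of each subunit gene in null over floxed embryoid bodies at day 5 (left) and day 3 (right), with the limma SE as bars, grouped from top to bottom as SAGA core, ADA module, SAGA deubiquitinase module, Trrap with the splicing proteins, and ATAC. Filled points passed the test and orange marks genes on chromosome 11. Most points at day 3 are open and lie near 0 while 8 filled points lie to the left at day 5.

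The stretch of promoter next to the transcription start is shown for 4 subunit genes that the comparisons turn on, namely Atxn7l3b and Taf5l, which gave the smallest adjusted p at day 5, and the alternative adaptors Tada2b and Tada2a. The sequences are from RefSeq, and each run gives the 250 bases before the start, 5′ to 3′ on the strand of the gene, on GRCm38.p6. Capitals mark the E-box CACGTG, the letters bound by Myc with Max, and CCGGAAG with its reverse complement CTTCCGG, a core of sites for ETS factors, searched on both strands. These letters were searched because the title of the series names c-Myc and FGF signaling, and ETS factors act at the end of the FGF pathway.
Atxn7l3b (chr10:112929027-112929276, - strand): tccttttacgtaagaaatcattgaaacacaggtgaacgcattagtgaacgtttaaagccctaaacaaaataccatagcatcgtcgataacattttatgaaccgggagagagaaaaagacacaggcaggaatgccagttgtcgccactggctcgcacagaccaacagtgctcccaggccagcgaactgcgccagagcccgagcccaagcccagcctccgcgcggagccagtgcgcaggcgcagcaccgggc
Taf5l (chr8:124021398-124021647, - strand): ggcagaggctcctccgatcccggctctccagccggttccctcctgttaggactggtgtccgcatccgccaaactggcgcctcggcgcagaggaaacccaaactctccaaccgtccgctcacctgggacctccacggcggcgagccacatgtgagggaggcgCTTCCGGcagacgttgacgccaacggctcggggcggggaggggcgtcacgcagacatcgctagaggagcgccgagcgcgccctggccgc
Tada2b (chr5:36484286-36484535, - strand): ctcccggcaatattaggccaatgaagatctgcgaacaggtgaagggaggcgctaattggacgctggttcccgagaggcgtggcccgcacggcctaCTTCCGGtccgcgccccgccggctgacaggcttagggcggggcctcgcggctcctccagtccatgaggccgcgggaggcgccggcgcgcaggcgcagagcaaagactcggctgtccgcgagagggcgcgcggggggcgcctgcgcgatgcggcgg
Tada2a (chr11:84129569-84129818, - strand): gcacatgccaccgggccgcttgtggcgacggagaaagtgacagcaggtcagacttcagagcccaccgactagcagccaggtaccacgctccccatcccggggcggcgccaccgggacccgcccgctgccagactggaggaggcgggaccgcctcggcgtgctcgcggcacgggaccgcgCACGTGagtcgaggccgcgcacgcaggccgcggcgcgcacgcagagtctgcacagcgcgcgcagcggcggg
CTTCCGG began 89 bases before the upstream start of Taf5l, and the window of its other listed start (chr8:124021057-124021306, not shown) held neither motif. It began 155 bases before the start of Tada2b, CACGTG began 71 bases before that of Tada2a, and neither motif was in the window of Atxn7l3b. The table held 38 windows for 27 of the 31 members. CACGTG was in 5 of these windows, of Dr1, Tada2a, Taf12, Taf6l and Taf9b, and in 6.02% of all 32851 windows. CCGGAAG or its reverse complement was in 7, of Pole4, Sf3b3, Tada2b, Taf12, Taf5l and Zzz3, and in 6.91% of all windows. Counted by gene, 5 of the 27 members with a window held CACGTG and 6 held the ETS core. Of the 6 members that fell at day 5 and had a window, 0 held CACGTG and 3 held the ETS core (Taf5l, Tada2b and Sf3b3). The shares of all windows given above are not by gene, and no share by gene was computed over all genes. A link of either motif to the falls was not tested.

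The core of SAGA and its TAF proteins gave the clearest falls outside the deubiquitinase module. Taf5l (ENSMUSG00000038697.14, chr8:123996318-124021397), a WD-repeat protein that takes in SAGA the place Taf5 has in TFIID, had 1248, 1282 and 1433 normalised reads in null and 1904, 1851 and 2036 in floxed samples at day 5. All null values lay below all floxed ones, a log2 change of -0.55 ± 0.081 (adjusted p = 0.000618). At day 3 Taf5l had 1851, 1635 and 1956 in null and 2023, 2027 and 2056 in floxed samples, without overlap, and the change of -0.17 ± 0.081 did not pass (adjusted p = 0.234). Tada1 (ENSMUSG00000026563.13, chr1:166379097-166393621), the histone-fold partner of Taf12 in SAGA, had 401, 569 and 528 in null and 758, 726 and 897 in floxed samples at day 5. The groups did not overlap, and the fall of -0.68 ± 0.15 passed (adjusted p = 0.00707) and was kept under every alternative run. At day 3 Tada1 had 264, 357 and 347 in null and 428, 421 and 503 in floxed samples, again without overlap. That change, -0.49 ± 0.15, did not pass (adjusted p = 0.0804), but did with the paired samples as a block (0.0208) and with DESeq2 (0.0358). Exons of Pogk cover 25.6% of the Tada1 exon length on the opposite strand, and it is not stated whether counting used the strand. Pogk stood at -0.40 ± 0.30 at day 5 (adjusted p = 0.364), and its part in the Tada1 values was not tested.

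Taf9b, the paralog of Taf9 that can replace it in SAGA and TFIID, was the core gene that rose. It lies on the X chromosome (ENSMUSG00000047242.14, chrX:106206883-106221158) and had 200.4, 228 and 299.5 normalised reads in null and 144, 135 and 156 in floxed samples at day 3. All null values lay above all floxed ones, with a log2 change of 0.72 ± 0.17 (adjusted p = 0.0299). The call was lost without null replicates 2 (0.0579) and 3 (0.119), without floxed replicates 1 (0.0904) and 2 (0.0964), and when only the day 3 samples were fitted (0.0619). At day 5 the values were 219, 218 and 217 in null and 201, 134 and 154 in floxed samples, still without overlap. The change of 0.44 ± 0.17 did not pass there (adjusted p = 0.0811), except without floxed replicate 1 (0.0337). The other 6 core genes, Supt3, Supt7l, Supt20, Taf6l, Taf10 and Taf12, passed on neither day, with log2 changes of -0.14 (Taf12) to 0.25 (Supt3) at day 5 and -0.20 (Taf10) to 0.17 (Supt3) at day 3. For Taf10, a histone-fold protein shared with TFIID, 45.9% of the exon length is covered by exons of Ilk on the opposite strand. Ilk stood at 0.14 ± 0.10 at day 5 (adjusted p = 0.331) and -0.36 ± 0.10 at day 3 (adjusted p = 0.0530). Its part in the Taf10 values was not tested.

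The ADA module differs between the complexes in 1 adaptor, Tada2b in SAGA and Tada2a in ATAC, and both adaptor genes were called once between genotypes, Tada2b lower at day 5 and Tada2a higher at day 3. Tada2b (ENSMUSG00000029196.9, chr5:36473670-36484285) had 431, 433 and 408 normalised reads in null and 581, 522 and 529.9 in floxed samples at day 5. All null samples were lower and the fall passed (-0.36 ± 0.087, adjusted p = 0.00985, and 0.0671 without the replicates numbered 3). At day 3 it had 458, 461 and 484 in null and 456, 445 and 419.9 in floxed samples, with each null value slightly above each floxed one and a change that did not pass (0.087 ± 0.087, adjusted p = 0.604). Exons of Grpel1 on the opposite strand cover 10.8% of the Tada2b exon length, and Grpel1 stood at -0.17 ± 0.080 at day 5 (adjusted p = 0.138). Tada2a (ENSMUSG00000018651.14, chr11:84078920-84129600) had 1103, 1119.6 and 1080.3 in null and 1018, 1078 and 1051 in floxed samples at day 5. Null values were all higher by a narrow margin, but the change of 0.070 ± 0.066 did not pass (adjusted p = 0.475). At day 3 it had 1645, 1689.5 and 1684 in null and 1410.5, 1331 and 1266 in floxed samples, a called rise without overlap (0.33 ± 0.066, adjusted p = 0.0125).

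Per kilobase of exon, Tada2a stood above Tada2b in every sample, and by more in null samples. The ratio was 3.31 ± 0.0560 in null and 2.47 ± 0.206 in floxed samples at day 5 (SD, n = 3 each), and 4.56 ± 0.119 in null and 3.87 ± 0.0686 in floxed samples at day 3. Null and floxed samples did not overlap on either day (3.27 to 3.37 and 2.24 to 2.63 at day 5). The ratio was given no test of its own, and Tada2a lies on chromosome 11, whose genes as a whole were higher in the null line. The 2 genes used in both complexes were not called on either day. Tada3, an adaptor that holds the acetyltransferase module together, stood at -0.17 ± 0.085 at day 5 (adjusted p = 0.148), and Sgf29, a reader of methylated histone H3, at -0.29 ± 0.12 (adjusted p = 0.105, and 0.0375 with the pairing as a block).

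**Figure D2:**
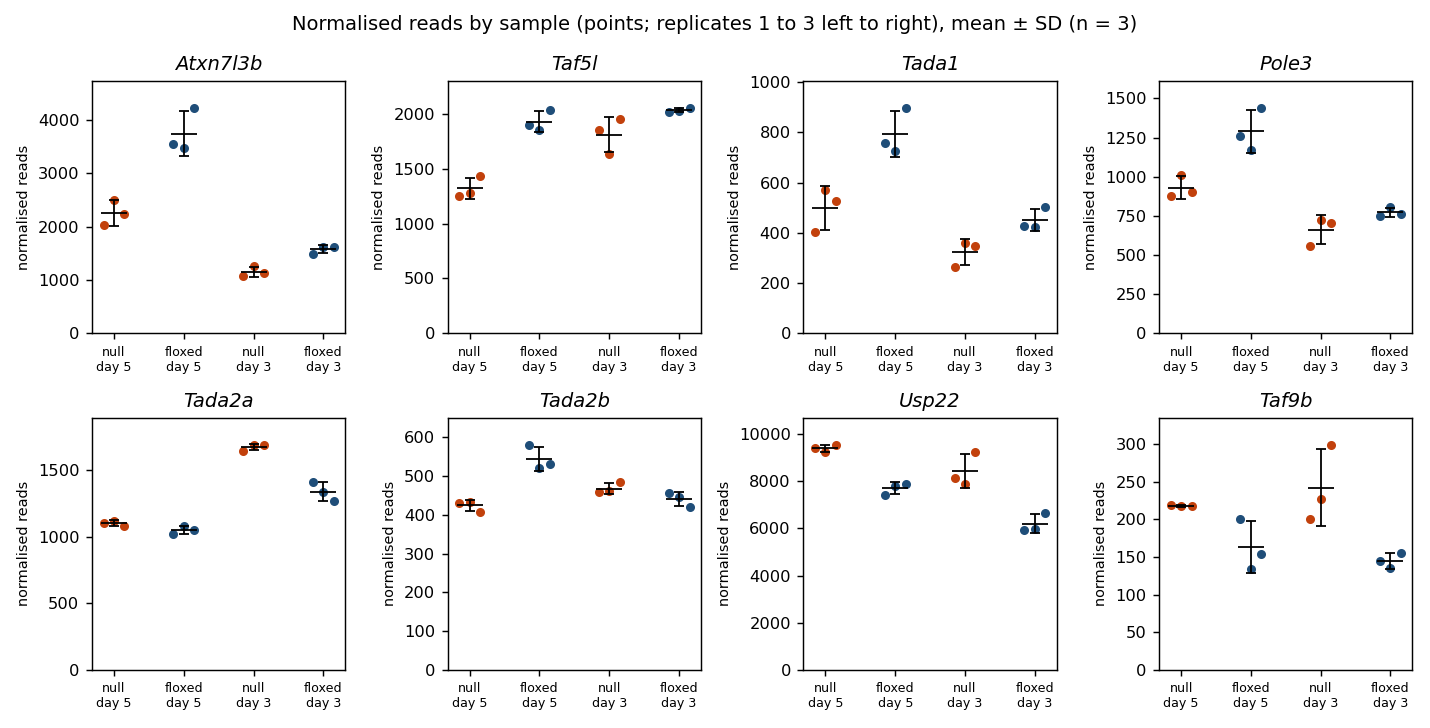
Normalised reads (linear axis from 0) of 8 subunit genes in the 12 samples, null in orange and floxed in blue, with the mean and SD of each group of 3. Atxn7l3b, Taf5l, Tada1 and Pole3 lie lower in null than in floxed samples on both days, and Tada2b lies lower at day 5 only. Usp22, Taf9b and Tada2a lie higher in null samples on both days, Tada2a by a narrow margin at day 5.

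In the deubiquitinase module, Usp22, its catalytic gene, was called higher on both days, while Eny2 fell at day 5. Atxn7l3b, a paralog only listed with the module, also fell at day 5. Usp22 lies on chromosome 11, and centring that chromosome on its own median ended both of its calls (adjusted p = 0.663 at day 5 and 0.509 at day 3). Atxn7l3b (ENSMUSG00000074748.3, chr10:112925430-112929001), a cytoplasmic paralog of Atxn7l3 that can bind Eny2, had 2028, 2503 and 2235 normalised reads in null and 3552, 3469 and 4229 in floxed samples at day 5. The highest null value lay well below the lowest floxed one, and the fall of -0.73 ± 0.099 (adjusted p = 0.000360) was the largest called change among the members on either day. The day 3 values of Atxn7l3b were 1069, 1261 and 1122 in null and 1492, 1612 and 1623 in floxed samples, again without overlap (-0.46 ± 0.099, adjusted p = 0.0175). The day 3 call was lost without null replicates 1 (0.0610) or 3 (0.0628) and without floxed replicates 2 (0.0577) or 3 (0.0510), while the day 5 call was kept under every alternative run. Eny2 (ENSMUSG00000022338.6, chr15:44428042-44438256), a small protein of the module that also works in the mRNA export complex TREX-2, had 788, 859.8 and 878 in null and 1088, 1046 and 1204 in floxed samples at day 5, without overlap. That fall passed (-0.40 ± 0.098, adjusted p = 0.0103). Its values were 710.0, 902 and 807 in null and 919.7, 1015 and 1014 in floxed samples at day 3, also without overlap. The change of -0.29 ± 0.098 there had an adjusted p of 0.0993, and of 0.0429 with the pairing as a block.

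Usp22 (ENSMUSG00000042506.15, chr11:61151785-61175055), the ubiquitin protease of the module, had 9408, 9267 and 9556 normalised reads in null and 7409, 7811 and 7896 in floxed samples at day 5. Every null sample was higher (0.29 ± 0.071, adjusted p = 0.0104). The day 3 values were 8132, 7893 and 9247 in null and 5955, 5981 and 6663 in floxed samples, and again no null sample overlapped a floxed one (0.44 ± 0.071, adjusted p = 0.00378). Atxn7l3 (ENSMUSG00000059995.12, chr11:102289300-102296631), the adaptor that activates Usp22, had 2840.4, 2908 and 2806 in null and 2744, 2500.4 and 2508 in floxed samples at day 5, and 2675, 2947 and 3185 in null and 2734, 2642 and 2677 in floxed samples at day 3. The groups overlapped only at day 3, and neither change passed (0.14 ± 0.071, adjusted p = 0.154, and 0.13 ± 0.071, adjusted p = 0.320). Per kilobase, the ratio of Atxn7l3b to Atxn7l3 was 0.912 ± 0.0848 in null and 1.68 ± 0.236 in floxed samples at day 5, and 0.454 ± 0.0441 in null and 0.678 ± 0.0417 in floxed samples at day 3, so Atxn7l3b exceeded Atxn7l3 in the floxed line at day 5 and in no other group mean. This ratio was given no test of its own, and its lower term Atxn7l3 lies on chromosome 11, whose genes as a whole were higher in the null line.

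The 3 genes for the Atxn7 subunit, which anchors the deubiquitinase module to SAGA, were not called between genotypes. Atxn7 had 429.5, 411 and 438 normalised reads in null and 426, 383 and 430.4 in floxed samples at day 5, and 430.1, 388 and 384 in null and 387, 389 and 348 in floxed samples at day 3. Its groups overlapped on both days. Atxn7l1 was the subunit gene of lowest level per kilobase in every group, with 206, 149 and 130.1 in null and 175, 176 and 167 in floxed samples at day 5, and 142, 137 and 173 in null and 181, 169 and 181 in floxed samples at day 3, which overlapped on both days. Atxn7l2 had 266, 249 and 265 in null and 284, 307 and 374 in floxed samples at day 5, all null values lower, and 395, 339 and 339 in null and 320.4, 319 and 323 in floxed samples at day 3, all null values higher. Neither change passed (-0.30 ± 0.12, adjusted p = 0.0825, and 0.15 ± 0.12, adjusted p = 0.486).

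Of the large scaffold and the splicing proteins of SAGA, Sf3b3 was called lower. Sf3b3 (ENSMUSG00000033732.9, chr8:110810239-110846787), a WD-type protein shared with the SF3b part of the spliceosome, had 11705, 10216 and 11073 normalised reads in null and 13899.9, 12116 and 13003 in floxed samples at day 5. All null values were below all floxed values, by a small margin (-0.24 ± 0.068, adjusted p = 0.0200). The call was lost without null replicate 2 (0.0876), without floxed replicates 1 (0.0831) or 3 (0.0523), with upper-quartile scaling (0.0505) and with only the day 5 samples fitted (0.0653). At day 3 it had 14598, 13984 and 14478 in null and 14406, 14912 and 15259 in floxed samples, which overlapped. Sf3b5, its small partner, stood at -0.18 ± 0.081 at day 5 (adjusted p = 0.116, and 0.0452 with the pairing as a block). Trrap, the scaffold that activators bind and that SAGA shares with the TIP60 acetyltransferase complex, stood at 0.14 ± 0.13 at day 5 and -0.051 ± 0.13 at day 3 (adjusted p = 0.461 and 0.866).

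Among the 8 genes of ATAC, Pole3 and Wdr5 fell at day 5 and none was called at day 3. Pole3 (ENSMUSG00000028394.9, chr4:62522649-62525068), a histone-fold protein that also belongs to DNA polymerase epsilon, had 874, 1011 and 899 normalised reads in null and 1263, 1168 and 1439 in floxed samples at day 5. No null sample reached a floxed one (-0.47 ± 0.11, adjusted p = 0.00892). Its day 3 values were 555, 720.3 and 705 in null and 750.3, 806 and 759 in floxed samples, without overlap and without passing (-0.23 ± 0.11, adjusted p = 0.237). Wdr5 (ENSMUSG00000026917.15, chr2:27515157-27536535), a WD-repeat protein shared with the MLL methyltransferase complexes, had 3169, 3172 and 3470.2 in null and 3707, 3743 and 3860.3 in floxed samples at day 5. The groups were apart, but the fall was the smallest of those called (-0.21 ± 0.059, adjusted p = 0.0218). It was lost without null replicates 1 (0.0638) or 2 (0.0780), without floxed replicate 3 (0.0727), with upper-quartile scaling (0.0607) and with only the day 5 samples fitted (0.0562). At day 3 Wdr5 had 4221, 4241 and 4422 in null and 4524, 4742 and 4477 in floxed samples, without overlap and without passing (-0.093 ± 0.059, adjusted p = 0.382).

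The genes that set ATAC apart most clearly did not pass on either day. Kat14, the second acetyltransferase of ATAC, stood at -0.19 ± 0.077 at day 5 and -0.14 ± 0.077 at day 3 (adjusted p = 0.0810 and 0.298). Yeats2, whose YEATS domain reads acylated histone H3, and Zzz3, a zinc finger protein that also binds histone H3, were at -0.057 ± 0.097 and -0.10 ± 0.067 at day 5. Mbip, a scaffold protein first known as an inhibitor of the kinase MUK, Dr1, a histone-fold repressor of TBP, and Pole4, the partner of Pole3, were at -0.075 ± 0.12, -0.16 ± 0.094 and 0.046 ± 0.087. These intervals are narrow for Zzz3 (-0.25 to 0.042 at day 5) and wider for Mbip (-0.33 to 0.18).

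Levels per kilobase of exon spanned a wide range among subunits of the same complexes. Averaged over the 4 groups, Usp22, Sf3b3 and Wdr5 were highest, with 1624, 1218 and 1107 normalised reads per kilobase. Supt3 and Atxn7l1 were lowest, with 45.6 and 16.5. Usp22 stood first in null samples on both days and in floxed samples at day 5 (1926 ± 29.6 in null and 1577 ± 53.2 in floxed samples, against 1007 ± 68.4 and 1191 ± 81.7 for Sf3b3). In floxed samples at day 3 Sf3b3 led (1361 ± 39.3), and Wdr5 (1274 ± 39.4) and Usp22 (1269 ± 82.2) lay within 1 SD of each other. Genes of the deubiquitinase module stood at both ends of the order, and the 3 Atxn7 genes lay among the 5 lowest. With the longest transcript as the length, Sf3b3 led over Usp22 and the same 3 genes stayed on top, while Trrap moved from place 12 to 5.

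**Figure D3:**
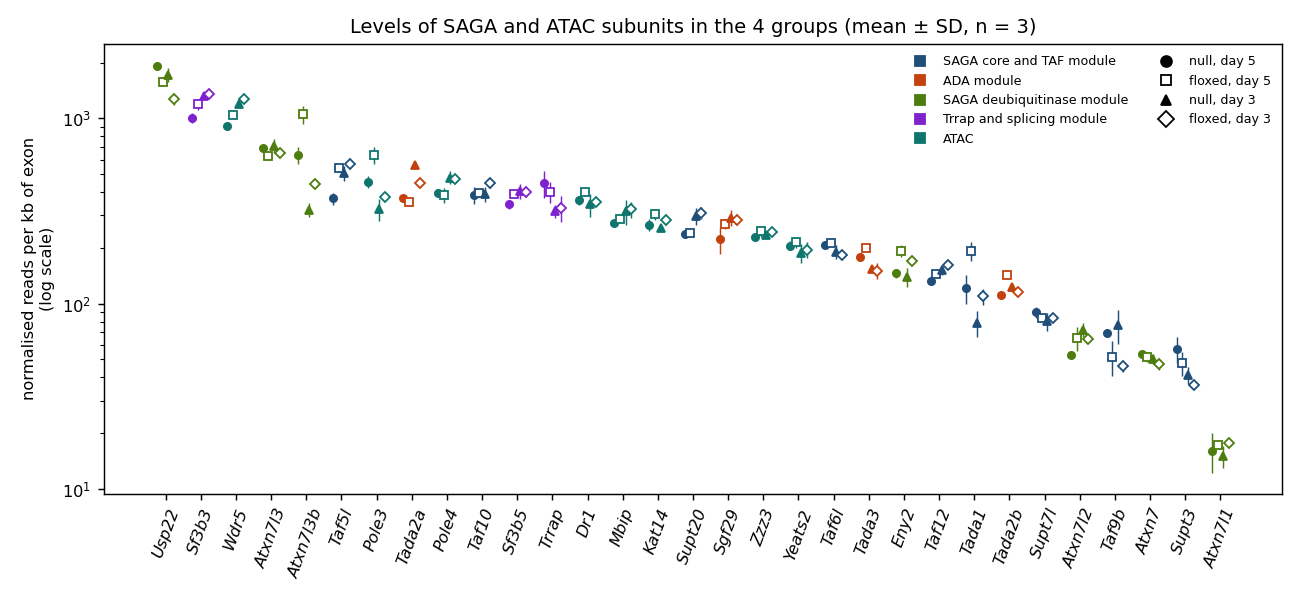
Mean normalised reads per kilobase of exon (log axis) of the 31 subunit genes, ordered by their mean over the 4 groups, with the SD of 3 samples as bars, filled for null and open for floxed, coloured by module. Usp22 leads and Atxn7l1 is lowest in the plot, and the 4 groups of Atxn7l3b spread more widely than those of its neighbours.

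On chromosome 11 lie 3 subunit genes, Usp22, Tada2a and Atxn7l3, and Kat2a (chr11:100704746-100712465), and the changes of the 3 were read against that chromosome. Usp22 lies 39.5 Mb from Kat2a, Tada2a 16.6 Mb and Atxn7l3 1.58 Mb. Over the 1332 tested genes of the chromosome the median log2 change in null against floxed samples was 0.33 at day 5 and 0.36 at day 3, against -0.043 and -0.024 for genes elsewhere. Of its genes, 41.3% were called higher at day 5 and 30.3% at day 3. The change of Usp22 exceeded that of 46.6% of the chromosome's genes at day 5 and 61.3% at day 3, and so lay near the middle. Tada2a exceeded 25.2% at day 5 and 44.7% at day 3, and Atxn7l3 31.8% and 18.8%. With the chromosome centred on its own median in each sample, Usp22 stood at -0.043 at day 5 (adjusted p = 0.663) and 0.083 at day 3 (0.509). Centring placed Tada2a at -0.26 (0.0200) and -0.033 (0.851), and Atxn7l3 at -0.19 (0.0406) and -0.23 (0.0646). Relative to their chromosome, then, Usp22 was called on neither day, and Tada2a and Atxn7l3 were called lower at day 5. In that centred run 14.2% of all genes were called lower at day 5. The share over the chromosome's own genes after centring is not given here. Among the 28 members on other chromosomes, 0 rose and 8 fell at day 5 (10.6% and 14.4% of all genes outside it), and 1 rose (Taf9b) and 1 fell (Atxn7l3b) at day 3 (1.86% and 2.18%).

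**Figure D4:**
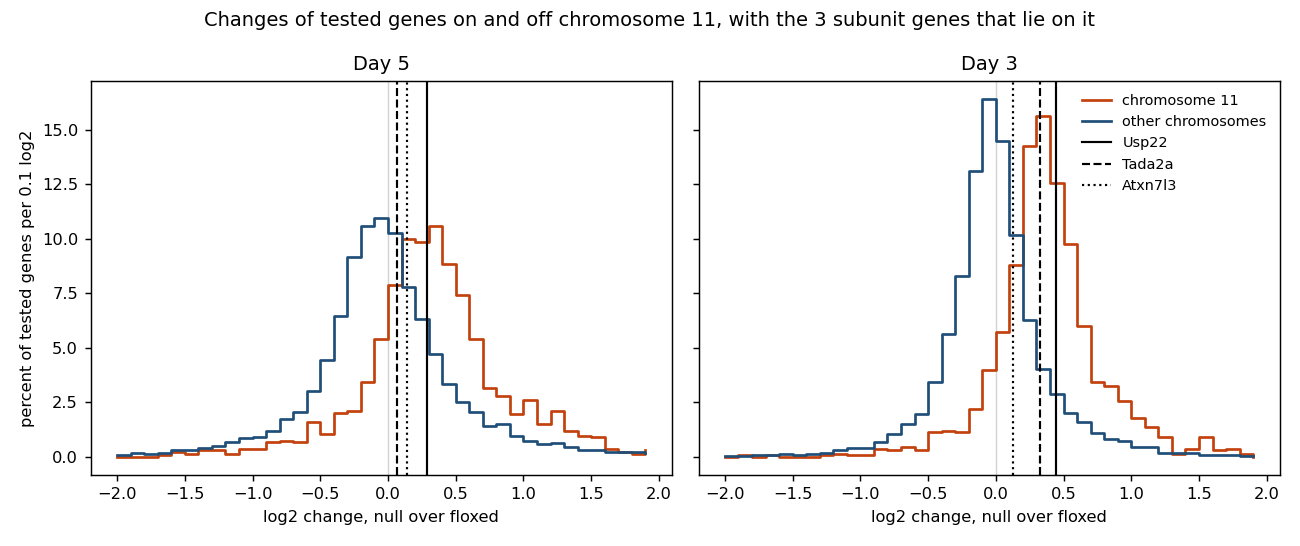
Share of tested genes per 0.1 of log2 change, null over floxed, for chromosome 11 (orange) and the other chromosomes (blue) at day 5 (left) and day 3 (right) within 2 log2 units of 0. The orange curve is shifted to the right on both days, and the lines for Usp22, Tada2a and Atxn7l3 fall inside it.

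Between day 3 and day 5 the subunit genes moved in either direction, in both lines. Of 31 members, 5 rose and 9 fell at day 5 against day 3 in null samples (16.1% and 29.0%, against 22.6% and 21.9% of all genes). In floxed samples 7 rose and 5 fell (22.6% and 16.1%, against 22.5% and 19.2% of all genes), so the members' shares lay near those of all genes there. The medians over the members were -0.021 in null and 0.016 in floxed samples. Atxn7l3b, Tada1 and Pole3 rose in both lines, which is 60.0% of the null risers and 42.9% of the floxed ones. Pole4, Sf3b3, Supt20, Tada2a and Wdr5 fell in both, which is 55.6% of the null fallers and all 5 floxed ones. Of all genes, 16.3% rose and 13.8% fell in both lines. No member was called in opposite directions (0.147% of all genes were), and 13 were called in neither line (44.0% of all genes).

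The 3 genes that rose in both lines had the largest called rises in each. Atxn7l3b had the values given above, and its change was 0.97 ± 0.099 in null (adjusted p = 1.30e-05) and 1.25 ± 0.099 in floxed samples (adjusted p = 2.21e-06). Tada1 changed by 0.62 ± 0.15 in null and 0.81 ± 0.15 in floxed samples (adjusted p = 0.00528 and 0.00102), and Pole3 by 0.50 ± 0.11 and 0.74 ± 0.11 (0.00300 and 0.000222). Over the same days Pogk, which overlaps Tada1 on the opposite strand, rose by 1.44 ± 0.30 in null and 1.70 ± 0.30 in floxed samples (adjusted p = 0.00190 and 0.000658), and its part in the Tada1 rise was not tested. Atxn7l3b, Tada1 and Pole3 kept these calls without any single library. They were lower in null than in floxed samples at day 5, and the day 5 samples are common to that comparison and to these.

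Tada2a, the ATAC adaptor, had the largest fall in null samples (-0.60 ± 0.066, adjusted p = 2.10e-05) and fell in floxed samples too (-0.35 ± 0.066, adjusted p = 0.00105). Supt20, a core protein that also takes part in autophagy, had 1546, 1456 and 1468 normalised reads at day 5 and 2075, 1831 and 1676 at day 3 in null samples, and 1525, 1457 and 1566 at day 5 and 2096, 1909 and 1826 at day 3 in floxed samples. All day 5 values lay below all day 3 values in both lines (-0.32 ± 0.084 and -0.36 ± 0.084, adjusted p = 0.00851 and 0.00438). Pole4 had 952, 1025 and 1004 at day 5 and 1103, 1296 and 1211 at day 3 in null samples, and 1039.9, 869.8 and 983 at day 5 and 1146, 1148 and 1239 at day 3 in floxed samples. It fell in both lines while its partner Pole3 rose (-0.27 ± 0.087 and -0.29 ± 0.087, adjusted p = 0.0214 and 0.0167). The Pole4 call was lost in null samples without day 3 replicates 2 (0.0890) or 3 (0.0501) or day 5 replicate 1 (0.0662), and in floxed samples without day 3 replicate 3 (0.0571) or day 5 replicate 2 (0.0805).

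Wdr5 and Sf3b3, both shared with other complexes, fell with time as well. Wdr5 changed by -0.39 ± 0.059 in null and -0.28 ± 0.059 in floxed samples (adjusted p = 0.000192 and 0.00210), and Sf3b3 by -0.39 ± 0.068 and -0.19 ± 0.068 (0.000603 and 0.0357). The floxed Sf3b3 call was lost without floxed day 5 replicates 2 (0.151) or 3 (0.0731) or floxed day 3 replicates 1 (0.0547), 2 (0.0881) or 3 (0.0965). The count of floxed fallers was 3 without floxed day 5 replicate 2 and 3 without floxed day 3 replicate 3 (16.0% and 18.6% of all genes fell then).

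Called in null samples alone were the falls of Taf5l (-0.46 ± 0.081, adjusted p = 0.000619), Atxn7l2 (-0.46 ± 0.12, 0.00739), Sgf29 (-0.40 ± 0.12, 0.0199) and Sf3b5 (-0.24 ± 0.081, 0.0306), and the rises of Trrap (0.49 ± 0.13, 0.00891) and Supt3 (0.47 ± 0.16, 0.0288). Called in floxed samples alone were the rises of Tada3 (0.42 ± 0.085, 0.00154), Usp22 (0.32 ± 0.071, 0.00315), Tada2b (0.30 ± 0.087, 0.0128) and Taf6l (0.21 ± 0.078, 0.0441), a core protein with a histone fold. A call in 1 line does not show a difference between the lines, which the interaction tests. Several of these calls rested on single libraries. That of Supt3 was lost without null day 5 replicates 1 (0.0964) or 2 (0.104) or null day 3 replicates 2 (0.0705) or 3 (0.0904), and with only the null samples fitted (0.0505). That of Sgf29 was lost without null day 5 replicate 1 (0.0838, log2 change -0.26) or null day 3 replicate 3 (0.0780), and that of Sf3b5 without null day 5 replicates 1 (0.104) or 3 (0.0502) or null day 3 replicate 2 (0.134). Tada2b was lost in floxed samples without day 5 replicate 1 (0.0555), and Taf6l without any 1 of the 6 floxed libraries (0.0587 to 0.152). Other changes passed only without 1 library. These were Trrap in floxed samples without day 3 replicate 3 (0.0219), and in null samples Usp22 without day 3 replicate 3 (0.0170) and Taf12 without day 3 replicate 1 (0.0429). With the pairing as a block, Usp22 (0.0339) and Tada3 (0.0447) also passed in null samples.

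**Figure D5:**
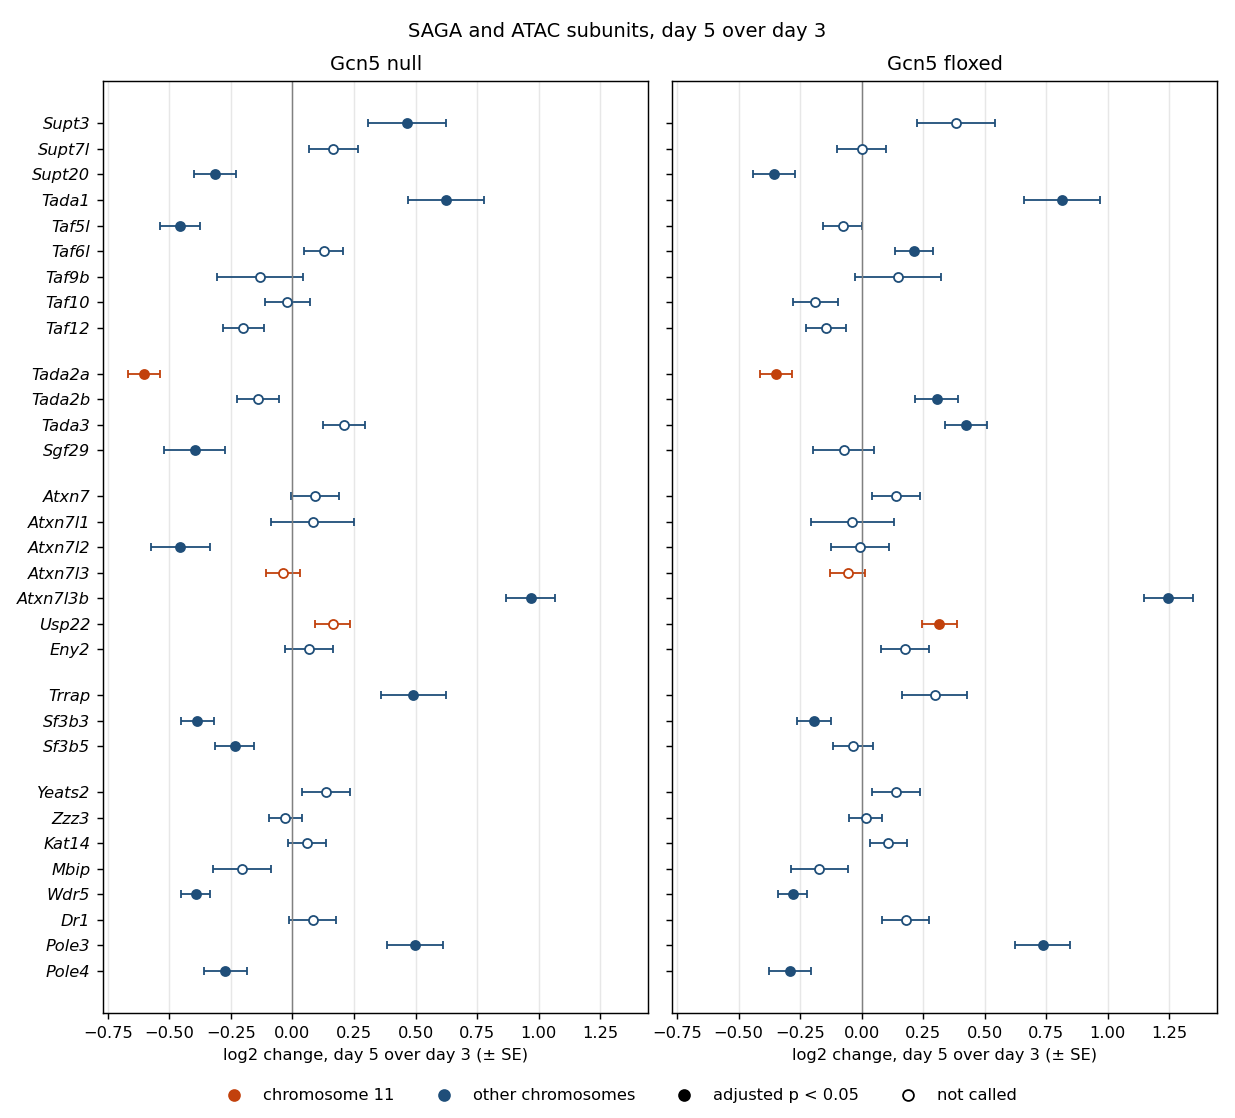
Log2 change of each subunit gene at day 5 over day 3 in null (left) and floxed (right) samples, with the limma SE as bars and filled points for called changes and orange for genes on chromosome 11. Atxn7l3b, Tada1 and Pole3 lie furthest to the right in both panels among the filled points, and Tada2a lies furthest to the left in null samples.

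Whether the genotype changes differed between the days was asked with the interaction, and with limma no member passed it (0.476% of all genes did). An unadjusted p under 0.05 was found for 4 of 31 members, no larger a share than the 14.2% of all genes, and all 4 had a more negative change at day 5. These were Tada2b (-0.44 ± 0.12, adjusted p = 0.127), Taf5l (-0.38 ± 0.11, 0.151), Tada2a (-0.26 ± 0.093, 0.238) and Atxn7l2 (-0.45 ± 0.17, 0.246). With edgeR 0 members passed, where 0.429% of all genes did. With DESeq2 1 of 31 did, Tada2b (adjusted p = 0.0364), where 3.01% of all genes did. The 95% interval of the Tada2b difference ran from -0.71 to -0.18.

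Genes of complexes that share a subunit with SAGA or ATAC were counted in null against floxed samples at day 5. Of all genes, 26.5% were called there, 13.0% higher and 13.5% lower. Of 12 TFIID genes outside SAGA, 1 rose and 1 fell in null against floxed samples, Taf7 (0.31 ± 0.11) and Taf13 (-0.39 ± 0.12), with a median of -0.11. Of 17 genes of the TIP60 complex, which shares Trrap, 0 rose and 8 fell (median -0.21), among them the ATPase genes Ruvbl1 (-0.56 ± 0.073) and Ruvbl2 (-0.34 ± 0.072) and the MRG-domain gene Morf4l2 (-0.64 ± 0.094). Of 6 other genes of SF3b, 0 rose and 2 fell, Phf5a (-0.51 ± 0.090) and Sf3b4 (-0.34 ± 0.096). Of 10 genes of the MLL complexes with Wdr5, 0 rose and 3 fell, Rbbp5 (-0.30 ± 0.065), Dpy30 (-0.32 ± 0.083) and Hcfc1 (-0.33 ± 0.11). Of 5 other TREX-2 genes none passed with limma, and 1 had an unadjusted p under 0.05, as did 39.0% of all genes. Their changes ran from -0.22 to 0.059. Of 6 partners of Dr1, Pole3 and Pole4, 1 rose, the remodelling gene Baz1a (0.39 ± 0.092).

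The deubiquitinases Usp27x and Usp51 can use Atxn7l3 and Eny2 in place of Usp22. Usp51 had 156, 185 and 174 normalised reads in null and 208, 248 and 234 in floxed samples at day 5 and fell (-0.42 ± 0.14, adjusted p = 0.0449), and Usp27x stood at -0.26 ± 0.13 (adjusted p = 0.173). At day 3 the same lists gave few calls. They were Mbtd1 on chromosome 11, which rose (0.32 ± 0.064), and Morf4l2 (-0.37 ± 0.094) and Phf5a (-0.36 ± 0.090), which fell. The 12 TFIID genes, 10 MLL genes, 5 TREX-2 genes and 6 partners of Dr1, Pole3 and Pole4 had no call in limma at day 3, with 2, 1, 0 and 1 of them under an unadjusted p of 0.05. Of all genes, 22.6% were under an unadjusted p of 0.05 at day 3 and 6.12% were called, 4.09% higher and 2.03% lower.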

How the data were processed

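Total RNA of embryoid bodies was made into libraries with a stranded Illumina kit using 8 PCR cycles, per the labels' protocols. Per the submitters' processing notes, the tools were DESeq 1.16.0, HTSeq 0.6.0, TopHat2 2.0.10 and CASAVA 1.8.2, with the build mm10. The authors deposited 1 table of 18269 genes whose values are a signal, read counts divided by a size factor for each library. Whether counting used the strand, and how the genes listed were chosen, is not given in the sources used here. The highest recovered count of any listed gene was at least 10.

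Dividing each column by its smallest step returned whole reads for 100% of values (within 0.01), and edgeR on those reads called 664 genes higher and 343 lower in null against floxed samples at day 3, and 2335 and 2155 at day 5. The main test was limma on log2(value + 1) with a mean for each of 4 groups, over the 17000 genes whose mean reached 10 in some group (1269 did not), with Benjamini-Hochberg adjustment (two-sided). Fold changes are on that scale, which understates those of low genes. The software was R 4.3.3, limma 3.58.1, edgeR 4.0.16 and DESeq2 1.42.0, and the fit was tested on simulated data. Levels per kilobase divide by the union of exons in GENCODE M21, and 18199 of the gene IDs had an entry there.

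Samples with the same replicate number deviated together between null and floxed groups (r = 0.270 to 0.372 at day 3 and 0.247 to 0.424 at day 5) and between days in null samples (0.123 to 0.282), every r being over 0.1, so the numbers were taken to pair them. In floxed samples the days gave 0.0814 to 0.214, so the numbers were not taken to pair those. The pairing comes from these values, not from the labels.

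The members and lists were chosen with earlier results of these data known. Per-sample values are given for members called between genotypes, members on chromosome 11, paralogs, and the 3 largest called rises and falls in each comparison of days, and neighbouring lists are given by counts with up to 3 called genes of smallest p. Alternatives changed the pseudocount, filter, scaling, tool, pairing, treatment of chromosome 11 and samples used, and the length used per kilobase, an alternative chosen after seeing the data.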

Additional observations from a re-analysis of the deposited data

Results flagged for a closer look

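Tada2b and Atxn7l2 drew attention because every sample of one group moved opposite to every sample of the other. Tada2b was lower in all null samples at day 5 and higher in all null samples at day 3. The day 3 margin was small, with a lowest null value of 458 and a highest floxed value of 456, and that change did not pass (limma adjusted p = 0.604). The difference between these log2 changes was -0.44 ± 0.12 (SE, limma interaction, adjusted p = 0.127). The same value is the difference of its day changes. Tada2b was lower at day 5 than at day 3 in all null samples and higher in all floxed ones. The null day change of -0.14 was not called (limma adjusted p = 0.206). Atxn7l2 showed the same pattern between the genotype changes, with a difference of -0.45 ± 0.17 (adjusted p = 0.246). Neither difference passed the test in limma. Of all genes, 22.2% lay lower without overlap in null samples at day 5 and 14.8% higher without overlap at day 3. The share of all genes with both, or with the pattern between days, was not counted, so how unusual either pattern is cannot be said.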

How the results depend on the processing

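Over 2930 member values recomputed under the alternatives, 2845 counted as unchanged, 64 lost a call, 17 gained one and 4 reversed. The 2845 stayed on the same side of the threshold. They include 81 values that changed sign but were not called in either run. Most values belong to changes not called in the main run, so the count of unchanged values says little about the calls. Among calls, that of Taf6l with time in floxed samples was kept in 9 of 18 runs. Those of Taf9b at day 3 and of Sf3b3 and Wdr5 at day 5 were kept in 12 of 18. The day 5 calls of Atxn7l3b, Taf5l and Tada1 were kept in all 18. Centring chromosome 11 reversed Usp22 at day 5 (-0.043), Tada2a at day 5 (-0.26) and day 3 (-0.033), and Atxn7l3 at day 5 (-0.19). By construction it removes the shift of that chromosome, and it left 0 members higher at day 5 and 1 at day 3 (10.7% and 1.33% of all genes). Leaving the chromosome out also left 0 and 1 (10.4% and 1.14% of the genes tested then). Over all genes called at day 3, centring put 47.7% higher, against 66.9% without it. DESeq2 called 2 members lower at day 3 and 1 in the interaction, as it did 3.95% and 3.01% of all genes. With the samples paired by replicate number as a block, 3 members were lower at day 3, and over all genes 1096 rose and 770 fell there, against 696 and 345 without the block. The block changed no call of a member other than Tada1 and Eny2 at day 3, Sgf29 and Sf3b5 at day 5, Tada3 and Usp22 in null samples with time, and Supt3 (0.0493) and Taf10 (0.0494) in floxed samples with time, where the numbers were not taken to pair. Without all replicates numbered 3, 1 member rose and 0 fell at day 3 (1.46% and 0.782% of all genes). In that run 3 fell at day 5 (7.59%) and 3 fell with time in floxed samples (17.6%), with fewer samples in each group. Leaving out 1 library at a time gave 2 to 3 members higher and 0 to 1 lower at day 3 (0 without null replicate 1 or 3 or floxed replicate 2 or 3), 1 to 2 higher and 6 to 8 lower at day 5 (2 higher without floxed replicate 1), 4 to 5 higher and 6 to 10 lower with time in null samples, 5 to 7 higher and 3 to 5 lower in floxed samples, and 0 in the interaction. With 3 samples a group, genes with few reads, Taf9b and Atxn7l1, had the widest intervals among the members. The cause of the other differences was not tested.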
